A study of Arabidopsis thaliana with 20 samples.

Results

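The genes described here encode proteins of the large (60S) subunit of the cytosolic ribosome in Arabidopsis thaliana, the thale cress. They were taken from a list of locus identifiers for the proteins RPL3 to RPL21 and RPL30, in the naming by which L stands for the large subunit. The list held 60 genes for 22 proteins, and all 60 had a row among the 37336 genes of the deposited table. Each protein had 2 to 4 listed gene copies, called paralogs. The list does not hold every copy: 2 other RPL21 genes, AT1G57660 and AT1G57860, were counted with the other 60S proteins, so a summed level of a protein covers its listed genes. The genes were listed by protein name and not picked by a measured value, but earlier results of these data were known when the list was chosen. Genes are given by protein and locus identifier.

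RNA was sequenced from inflorescences in 5 groups of 3 libraries. The control was wild-type Columbia, written Col.0 in the sample titles. The line dvl1-1D is a dominant line with high DVL1, and in 35S:DVL8 the promoter 35S of a plant virus, active in most tissues, drives DVL8 (35S.DVL8.2 in the sample titles). DVL/RTFL genes encode small plant peptides that change organ shape when they are overexpressed. Both quintuple mutants were mutated in dvl8, dvl11, rtfl11 and dvl19, 4 of 5 genes, to which the dvl1 quintuple added dvl1 and the rtfl9 quintuple rtfl9. The series had 20 samples, and the authors set 5 of them aside as outliers, 1 per group, which can narrow the spread within groups. Plant age and whether 35S.DVL8.2 is a single transgenic line are not given in the sources used here, and the labels differ on the tissue: the study text gives inflorescences up to the first open flower, the sample labels give apices, and the extraction protocol also gives flowers after opening.

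Reads assigned to genes numbered 22471899 to 36589879 per library. DVL1 lay between 525 and 612 RPKM (reads scaled to gene length and library total) in dvl1-1D and at 0 in wild type, and DVL8 between 152 and 173 RPKM in 35S:DVL8 and at most 0.0616 in wild type. DVL11 (1.84 to 2.24 RPKM in the dvl1 quintuple, 0.992 to 1.46 in the rtfl9 quintuple, 1.74 to 2.48 in wild type) and RTFL11 (0.162 to 0.439, 0.246 to 0.523 and 0.166 to 0.391) still had transcripts in the mutants, and RTFL9 and DVL19 were listed at 0 in all 15 libraries. The floral genes AP1, AP3, PI, AG, SEP3, STM and LFY were present in each library, with a summed level of 393 to 484 RPKM. The root gene PYK10 reached at most 0.56 RPKM and the seed storage gene CRA1 at most 0.184. Of all libraries, 35S:DVL8 replicate 2 and rtfl9 quintuple replicate 4 were the least like their groups, with 87 and 61 genes that differed over 2-fold from both other replicates on the log2(RPKM + 1) scale, against 5 to 39 genes in the other libraries.

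The 60S subunit carries the peptidyl transferase centre, where amino acids are joined, and the tunnel through which the new protein leaves. Its proteins are assembled with ribosomal RNA in the nucleolus, and the particle is completed in the cytoplasm. In plants nearly every ribosomal protein is encoded by several genes, and demand for their products is highest in dividing and growing tissue such as young flowers. Arabidopsis mutants in single 60S protein genes, among them those called piggyback, show narrow or pointed leaves.

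Most of these genes were among the most abundant transcripts of the inflorescence. Over the 15 libraries, 48 of 60 had a mean of at least 100 RPKM and 25 of over 300 RPKM. Of the 60, 57 passed the filter of at least 1 RPKM in at least 3 libraries and were tested. Their median level was 276.0 RPKM, against 11.2 RPKM over all 20223 genes tested. The highest mean was that of the RPL14 gene AT4G27090, with 913.3 RPKM. Together the 60 genes reached 16535 ± 245 RPKM in wild type (SD, n = 3). RPKM is scaled to the total of each library, so a level is a share of the RNA and not an amount per cell, and fewer cells of a type cannot be told apart from less RNA per cell.

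The balance between paralogs ranged from near equality to a single dominant gene. For 16 of the 60 genes the deposited RPKM did not give whole reads, within 0.05 of a read, at the exon length of the TAIR10.1 annotation, among them AT1G43170, AT3G09630, AT3G25520, AT5G39740, AT1G14320 and AT1G26910, so levels compared between paralogs rest on the authors' lengths. RPL3 and RPL4 lie near the peptidyl transferase centre and the exit tunnel. The RPL3 gene AT1G43170 averaged 686.3 RPKM, 22.4-fold above its paralog AT1G61580 with 30.57 RPKM, whereas the RPL4 genes AT5G02870 and AT3G09630 averaged 383.0 and 312.1 RPKM. RPL5 and RPL11 join the 5S ribosomal RNA before they enter the subunit. The RPL5 genes AT3G25520, known as PIGGYBACK3, and AT5G39740 stood at 462.7 and 435.5 RPKM, and the RPL11 genes ran from 298.9 RPKM (AT4G18730) to 26.26 RPKM (AT2G42740). RPL10 joins the subunit late, in the cytoplasm, and its genes ran from 720.9 RPKM (AT1G14320) to 25.99 RPKM (AT1G26910). RPL12 forms the base of the stalk that binds translation factors, and its genes ran from 293.5 RPKM (AT2G37190) to 100.6 RPKM (AT5G60670).

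The other proteins are mostly placed on the outer surface of the subunit or around the tunnel exit. RPL6 ran from 299.2 RPKM (AT1G18540) to 142.5 RPKM (AT1G74060), RPL7 from 412.8 (AT2G01250) to 63.97 RPKM (AT3G13580), and RPL7a from 440.9 (AT3G62870) to 372.0 RPKM (AT2G47610). RPL9 ran from 116.6 (AT1G33140, known as PIGGYBACK2) to 54.58 RPKM (AT4G10450), RPL10a from 402.0 (AT2G27530, known as PIGGYBACK1) to 129.3 RPKM (AT5G22440), and RPL13a from 408.8 (AT3G24830) to 34.49 RPKM (AT4G13170). RPL15 ran from 463.8 (AT4G16720) to 179.3 RPKM (AT4G17390) and RPL17 from 562.2 (AT1G67430) to 220.1 RPKM (AT1G27400). In wild type the listed genes of RPL9 summed to 277.0 ± 10.1 RPKM and those of RPL19 to 1191 ± 10.3 RPKM (SD, n = 3). Within RPL14, AT4G27090 exceeded AT2G20450 (176.6 RPKM) by 5.17-fold, and within RPL21, AT1G09690 (459.1 RPKM) exceeded AT1G09590 (320.9 RPKM) by 1.43-fold.

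Of the 60 genes, 3 were nearly silent and lay under the filter. The RPL13 gene AT3G48960 had 71 reads over the 15 libraries and at most 0.62 RPKM, while its paralogs AT3G49010 and AT5G23900 averaged 387.6 and 162.5 RPKM. The RPL18 gene AT2G47570 had 38 reads and at most 0.3 RPKM, beside AT3G05590 with 494.0 and AT5G27850 with 339.5 RPKM. The RPL30 gene AT1G36240 had 8 reads and at most 0.22 RPKM, beside AT1G77940 with 390.7 and AT3G18740 with 346.7 RPKM. The RPL8 gene AT3G51190 lay just inside the filter, with at least 1 RPKM in 5 libraries (1 of dvl1-1D and 2 of each quintuple). Its mean was 0.832 RPKM, 642-fold below the leading RPL8 gene AT2G18020 with 533.6 RPKM, and it passed no test. Their coding sequences bear on how far reads can be assigned: paralog pairs shared 56.7 to 99.1% of aligned bases (median 83.6%, 57 pairs), and 2 pairs lay above 95%, RPL9 AT1G33120 with AT1G33140 (99.1%) and RPL21 AT1G09590 with AT1G09690 (96.2%), so the values of these 4 genes are uncertain one against the other.

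In dvl1-1D the 60S protein genes were lower than in wild type as a broad group. Tests here are limma on log2(RPKM + 1) with Benjamini-Hochberg adjustment over all genes, and a gene is called at an adjusted p under 0.05. Of the 57 genes tested, 46 fell (80.7%) and 0 rose, where 14.0% of all tested genes fell and 16.7% rose. Among the 986 other genes with a mean of at least 100 RPKM, 30.1% fell. The change was small in each gene: the median log2 fold change was -0.21 with quartiles of -0.26 and -0.15. The median was 0.02 over all genes tested and -0.06 over the other genes with a mean of at least 100 RPKM. The 3 dvl1-1D libraries lay below all 3 wild-type libraries in 53 of the 57 genes (20.9% of all genes tested). The summed level was 14568, 14654 and 14211 RPKM in dvl1-1D against 16692, 16252 and 16661 RPKM in wild type, 87.6% of the wild-type mean. The groups did not overlap, and an exact permutation test of 3 against 3 libraries cannot give a p below 0.1.

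**Figure D1:**
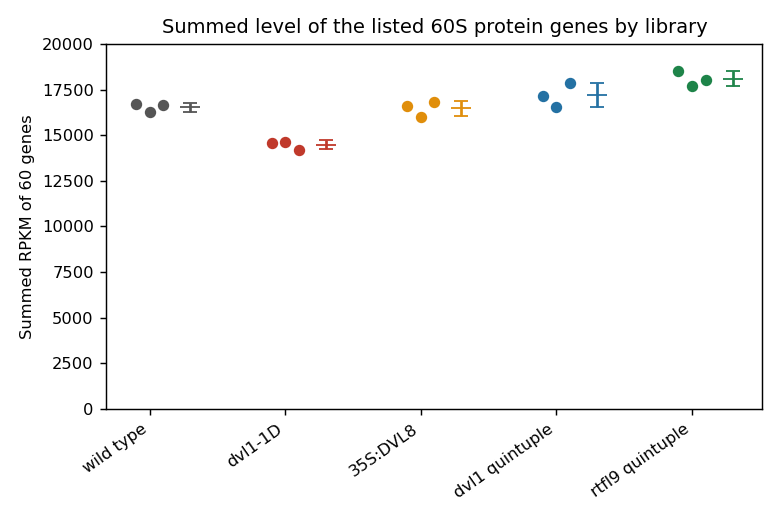
Summed RPKM of the 60 genes in each library, by group, with the mean and SD beside the points (n = 3). The dvl1-1D libraries lie between 14211 and 14654 RPKM and below all other libraries, and the rtfl9 quintuple libraries between 17704 and 18542 RPKM.

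The lower level reached each protein of the list. For all 22 proteins the summed level of the listed paralogs was below wild type in dvl1-1D with no overlap between libraries, at 83.4 to 92.1% of the wild-type mean (median 86.6%). RPL4 had the lowest share (83.4%) and RPL19 the highest (92.1%). All tested paralogs were called in 13 proteins and at least 1 paralog in each of the others. Genes under 100 RPKM had a median log2 fold change of -0.28 (9 genes), those from 100 to 300 RPKM -0.21 (23 genes) and those over 300 RPKM -0.2 (25 genes). Across the 57 genes Spearman's rho of mean level and log2 fold change was 0.28 and Pearson's r was -0.02, as descriptions over genes that share the same libraries.

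**Figure D2:**
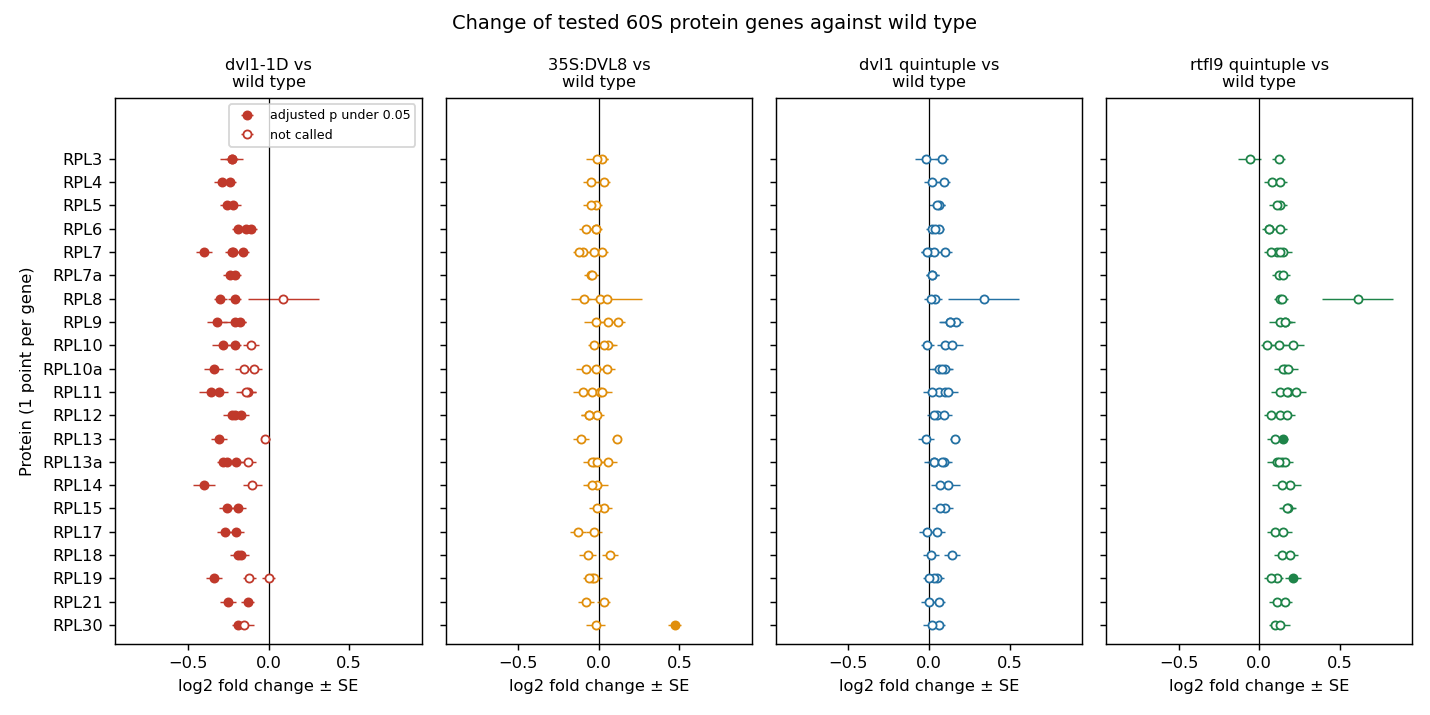
Log2 fold change of the tested genes of 21 proteins against wild type, with standard errors, by protein and line; filled points passed the test. Nearly all points lie left of 0 in dvl1-1D, most of them filled, and right of 0 in the rtfl9 quintuple, with 2 filled, while in 35S:DVL8 a single RPL30 gene stands out at 0.47.

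The 6 largest falls are given here, and none of them was in the leading paralog of its protein, although the leading RPL13 gene AT3G49010 fell by nearly as much (-0.31 ± 0.05, adjusted p = 0.000571). The RPL14 gene AT2G20450 had 125, 143 and 134 RPKM in dvl1-1D and 187, 171 and 174 RPKM in wild type (log2 fold change -0.40 ± 0.07 SE, adjusted p = 0.000522). All dvl1-1D libraries lay below all wild-type libraries. The RPL7 gene AT1G80750 fell from 73.9, 64.2 and 67.5 RPKM to 54.4, 50.2 and 50.5 RPKM (-0.40 ± 0.05, adjusted p = 0.000145). It overlaps the gene AT1G80760 (mean 20.62 RPKM) on the other strand by 26 bases, and reads were counted without strand. The RPL11 gene AT2G42740 fell from 26.7, 25.9 and 27.2 to 20.4, 21.7 and 19.6 RPKM (-0.36 ± 0.07, adjusted p = 0.00164). Again the groups did not overlap. The RPL19 gene AT3G16780 fell from 126, 116 and 117 to 92.2, 96.8 and 93.6 RPKM (-0.34 ± 0.05, adjusted p = 0.000164). The RPL10a gene AT5G22440 fell from 130, 129 and 131 to 97.2, 110 and 101 RPKM (-0.34 ± 0.06, adjusted p = 0.0015), and the RPL9 gene AT4G10450 from 51.6, 52.3 and 58.3 to 42.2, 45.6 and 41.9 RPKM (-0.32 ± 0.06, adjusted p = 0.00158). In both genes every dvl1-1D library was below every wild-type library. In the quintuple mutants and in 35S:DVL8 none of these genes was called lower.

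Of the tested genes, 11 were not called in dvl1-1D. They included the leading paralogs of RPL10 (AT1G14320), RPL10a (AT2G27530), RPL13a (AT3G24830), RPL14 (AT4G27090) and RPL19 (AT1G02780), the RPL10a gene AT1G08360, the RPL11 gene AT5G45775, the RPL30 gene AT3G18740 and the near-silent RPL8 gene AT3G51190. The other two had estimates near 0: the RPL19 gene AT4G02230 had 188, 191 and 189 RPKM in dvl1-1D and 196, 182 and 188 RPKM in wild type (0.00 ± 0.04, adjusted p = 0.968), and the RPL13 gene AT5G23900 had 149, 156 and 150 RPKM against 152, 152 and 157 RPKM (-0.02 ± 0.03, adjusted p = 0.771). In both genes the libraries of the groups overlapped. By contrast the uncalled leading paralogs, AT5G45775 and AT3G18740 lay below wild type without overlap. The limma estimates of AT1G14320, AT2G27530, AT3G24830, AT1G02780 and AT3G18740 were -0.11, -0.15, -0.13, -0.12 and -0.15. Their adjusted p-values were 0.0979, 0.058, 0.0583, 0.0549 and 0.0646. AT1G08360 overlapped wild type (-0.09, adjusted p = 0.187).

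**Figure D3:**
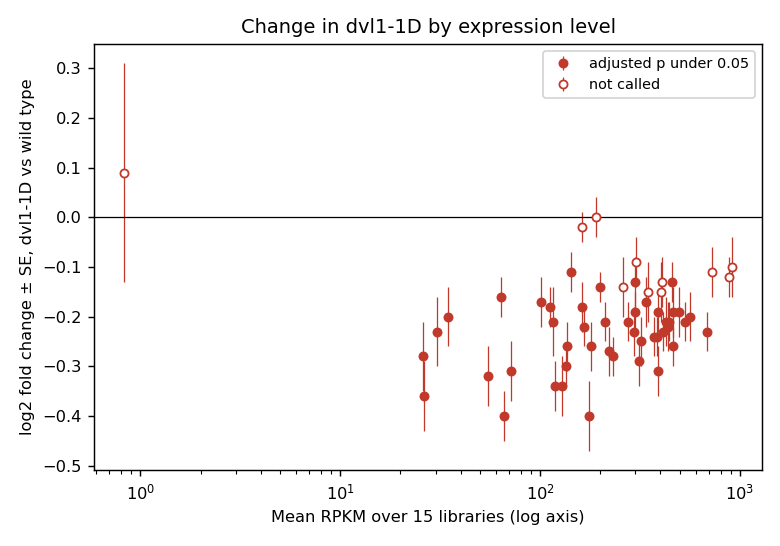
Log2 fold change with standard error in dvl1-1D against wild type, by mean RPKM over the 15 libraries on a log axis; filled points passed the test. Called falls run from 25.99 to 686.3 RPKM, and the gene above 0 at the far left is the RPL8 gene AT3G51190 at 0.832 RPKM.

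The balance between the listed paralogs was compared with that in wild type. For each protein the log2 ratio of the leading to the second paralog was compared in 7 comparisons by an exact permutation test over libraries, two-sided and unadjusted, which makes 154 tests. In dvl1-1D against wild type, 8 of 22 ratios did not overlap, all at the smallest p that 3 against 3 libraries allow, 0.1. The same wild-type libraries gave 8 of 22 in 35S:DVL8, 10 of 22 in the dvl1 quintuple and 3 of 22 in the rtfl9 quintuple. With 3 against 3 libraries in random order, a ratio separates fully, in either direction, with a probability of 0.1. The ratios share libraries, and their counts were not tested. The counts for dvl1-1D, 35S:DVL8 and the dvl1 quintuple include RPL21, and that for the dvl1 quintuple also RPL9. The compared genes of these proteins are so alike that their ratios are uncertain. AT2G20450 made up 17.1, 16.1 and 16.1% of the summed RPL14 level in the wild-type libraries, against 13.2, 14.2 and 13.8% in dvl1-1D. The ratio of AT4G27090 to AT2G20450 was 0.30 higher on the log2 scale. AT5G23900 made up 26.6, 27.6 and 28.2% of RPL13 in the wild-type libraries, against 30.7, 32.6 and 32.2% in dvl1-1D, so that the ratio of AT3G49010 to it was lower by 0.30 on the log2 scale (-0.30). The share of AT5G23900 was also above wild type without overlap in 35S:DVL8 (30.7 ± 1.2%) and the dvl1 quintuple (30.0 ± 1.6%), but not in the rtfl9 quintuple (28.2 ± 0.51%; SD, n = 3 each).

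**Figure D4:**
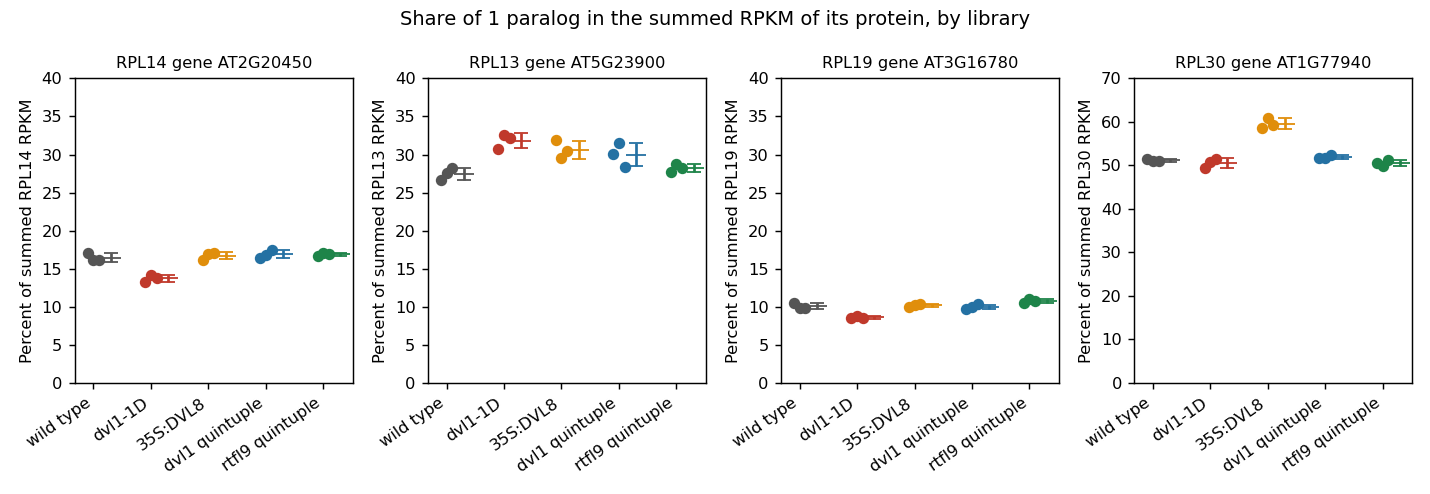
Share of a single paralog in the summed RPKM of its protein, in each library, with the mean and SD beside the points (n = 3). In dvl1-1D AT2G20450 and AT3G16780 take smaller shares and AT5G23900 a larger one than in wild type, and in 35S:DVL8 AT1G77940 takes 58.5 to 61.0% of RPL30.

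The promoters of the 3 RPL19 paralogs are shown because only AT3G16780 was called lower in dvl1-1D. Of the others, AT1G02780 lay below wild type without overlap and just missed the limma threshold (-0.12 ± 0.04, adjusted p = 0.0549). AT4G02230 stayed at wild-type level (0.00 ± 0.04, adjusted p = 0.968). Over the 15 libraries AT1G02780 averaged 883.9 RPKM, AT4G02230 189.5 RPKM and AT3G16780 118.6 RPKM. The share of AT3G16780 went from 10.1 ± 0.38% to 8.59 ± 0.17% of the summed RPL19 level in dvl1-1D, with no overlap, AT4G02230 stood at 15.9 ± 0.48% in wild type, against 17.3 ± 0.099% in dvl1-1D, and AT1G02780 at 74.1% in both (SD, n = 3). RPL19 reaches from the subunit surface towards the small subunit. The windows are the 250 bases before the annotated gene start, read 5′ to 3′ on the strand of the gene from the RefSeq genome TAIR10.1, and none overlaps another annotated gene. The gene starts are those of TAIR10.1 and may differ from those the authors used. Capitals mark matches, on either strand, to the telo-box AAACCCTA and to the site II core TGGGCC, motifs known from promoters of plant genes for ribosomal proteins and of genes active in dividing cells.
RPL19 gene AT1G02780, TAIR10.1 chr1:609535-609784, minus strand: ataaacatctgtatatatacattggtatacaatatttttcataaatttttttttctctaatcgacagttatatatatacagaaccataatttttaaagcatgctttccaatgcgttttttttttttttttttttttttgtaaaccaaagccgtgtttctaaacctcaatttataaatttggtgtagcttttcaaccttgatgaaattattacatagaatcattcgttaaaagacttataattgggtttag
RPL19 gene AT3G16780, TAIR10.1 chr3:5708576-5708825, plus strand: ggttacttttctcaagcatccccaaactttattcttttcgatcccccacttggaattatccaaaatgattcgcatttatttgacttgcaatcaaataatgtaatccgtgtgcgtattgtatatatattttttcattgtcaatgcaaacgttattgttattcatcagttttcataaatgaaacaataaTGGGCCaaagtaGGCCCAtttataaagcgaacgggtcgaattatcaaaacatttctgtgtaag
RPL19 gene AT4G02230, TAIR10.1 chr4:980699-980948, minus strand: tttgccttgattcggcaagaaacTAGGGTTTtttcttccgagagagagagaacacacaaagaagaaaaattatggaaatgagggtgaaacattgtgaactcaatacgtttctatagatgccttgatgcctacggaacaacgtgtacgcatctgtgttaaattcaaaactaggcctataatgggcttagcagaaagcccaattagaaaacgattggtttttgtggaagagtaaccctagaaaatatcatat
The window of AT3G16780 holds the site II core at 63 and 51 bases before the gene start, on opposite strands, and that of AT4G02230 a telo-box at 227 bases. That of AT1G02780 holds neither, which says only that these letters are not in it. Close forms of the motifs were not searched. The window of AT4G02230 holds tgggct and its reverse complement agccca, which resemble the site II core and are not marked. Over all members, 37 of 60 windows (61.7%) hold the site II core, against 13.7% of the windows of the 27443 protein-coding genes in the table. The telo-box is in 17 of 60 (28.3%, against 4.49%), both motifs are in 10 (16.7%, against 0.984%) and neither in 16 (26.7%, against 82.8%). The motifs can share at most an end base, and a match is a description of sequence only.

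In 35S:DVL8 the 60S protein genes stayed near wild type, apart from a single RPL30 gene. Of the 57 tested genes 1 rose (1.75%) and 0 fell, where 0.0593% of all tested genes rose and 0.0791% fell. The median log2 fold change was -0.02, and the summed level was 16594, 16001 and 16805 RPKM, 99.6% of the wild-type mean and overlapping it. RPL30 lies on the side of the subunit that faces the small subunit, and in yeast the protein also binds its own transcript and lowers its splicing. The RPL30 gene AT1G77940 had 505, 485 and 522 RPKM in 35S:DVL8 against 357, 359 and 373 RPKM in wild type (0.47 ± 0.04, adjusted p = 0.000366). It had 316, 323 and 318 RPKM in dvl1-1D, 383, 356 and 400 RPKM in the dvl1 quintuple and 393, 381 and 391 RPKM in the rtfl9 quintuple. The 35S:DVL8 libraries were the highest of all 15, and the dvl1-1D libraries the lowest. Its paralog AT3G18740 had 359, 310 and 360 RPKM in 35S:DVL8 and 337, 346 and 358 RPKM in wild type (-0.02 ± 0.06, adjusted p = 0.955), and the groups overlapped.

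**Figure D5:**
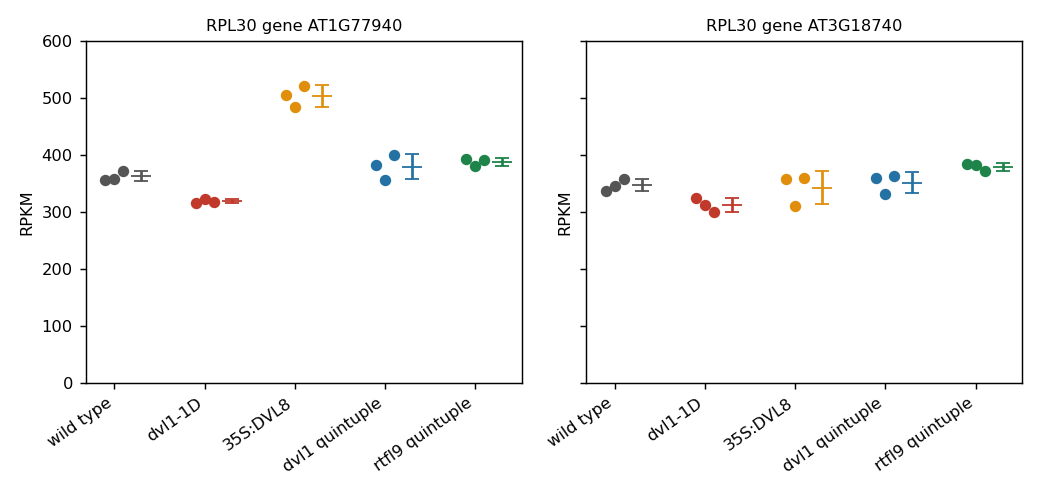
RPKM of the RPL30 genes AT1G77940 and AT3G18740 in each library, with the mean and SD beside the points (n = 3). AT1G77940 stands at 485 to 522 RPKM in 35S:DVL8, above all other libraries, and AT3G18740 at 310 to 360 RPKM there, overlapping the wild-type libraries.

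AT1G77940 thus made up 58.5, 61.0 and 59.2% of the summed RPL30 level in 35S:DVL8 against 50.9 to 51.5% in wild type, and RPL30 was the only protein of the 22 whose sum was above wild type without overlap there, at 119%. Its coding sequence shares 84.1% of bases with AT3G18740. The annotated gene next to it on its 3′ side, AT1G77930, which encodes a DnaJ protein, had 23.3, 28.3 and 27.8 RPKM in 35S:DVL8 against 20.9, 20.9 and 20.8 RPKM in wild type, with no overlap (0.33 ± 0.08, adjusted p = 0.109). In dvl1-1D, where AT1G77940 fell, AT1G77930 had 23.3, 25.1 and 22.4 RPKM, also above wild type without overlap (0.17 ± 0.08, adjusted p = 0.145). The window before AT1G77940, printed because it belongs to the only member called in 35S:DVL8 against wild type, ends in a telo-box and has no site II core.
RPL30 gene AT1G77940, TAIR10.1 chr1:29305412-29305661, minus strand: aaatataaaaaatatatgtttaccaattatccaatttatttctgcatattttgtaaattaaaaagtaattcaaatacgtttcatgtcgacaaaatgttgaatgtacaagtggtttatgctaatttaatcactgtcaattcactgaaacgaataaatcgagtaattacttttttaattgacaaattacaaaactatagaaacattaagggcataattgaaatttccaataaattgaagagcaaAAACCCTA
The summed levels of RPL6 and RPL13 were below wild type without overlap in 35S:DVL8, at 96.6 and 96.5% of the wild-type mean, although none of their genes was called.

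In the dvl1 quintuple no 60S protein gene was called by limma (0 of 57 at an adjusted p under 0.05, where 0.0198% of all tested genes rose and 0.00989% fell). At an unadjusted p under 0.05, 6 genes were higher (4.04% of all genes tested were), and 14 genes lay above wild type without overlap (24.6%, against 9.3% of all genes tested). The median log2 fold change was 0.05. The summed level was 17157, 16548 and 17868 RPKM, which overlapped wild type, at 104% of its mean. Sums of RPL3, RPL4, RPL9, RPL11, RPL13a and RPL14 lay above wild type without overlap, with RPL9 highest at 111%. Without 35S:DVL8 replicate 2, which enters the shared estimate of spread, 1 gene was called higher. Over all 20192 genes then tested, 12 were called higher and 112 lower, against 4 and 2 with all libraries.

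In the rtfl9 quintuple the estimates lay above wild type in nearly all 60S protein genes, but few passed the test. The median log2 fold change was 0.13, against 0.02 over all genes tested, and 56 of 57 estimates were above 0. Called higher were 2 genes (3.51%, where 0.321% of all tested genes rose), and 0 were called lower (0.91% of all). These shares over all genes depend on each wild-type library: the 65 higher and 184 lower genes became 9 and 0, 7 and 1, and 7 and 0 without wild-type replicate 1, 2 and 3. At an unadjusted p under 0.05, 44 genes were higher (77.2%, against 9.05% of all genes), and 44 genes lay above wild type without overlap (against 12.0%). The summed level was 18542, 17704 and 18030 RPKM, 109% of the wild-type mean and above all wild-type libraries. By protein, 21 of 22 sums lay above wild type without overlap, at 104 to 114%. RPL10 was the exception, and RPL11 had the highest share.

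The called genes were those of RPL19 and RPL13. AT3G16780 had 138, 137 and 141 RPKM in the rtfl9 quintuple against 126, 116 and 117 RPKM in wild type (0.21 ± 0.05, adjusted p = 0.0477), and AT5G23900 had 170, 168 and 173 RPKM against 152, 152 and 157 RPKM (0.15 ± 0.03, adjusted p = 0.0493). Neither overlapped wild type, and both lay close to the threshold. Leaving out any wild-type, dvl1-1D or rtfl9 quintuple library, 35S:DVL8 replicate 3 or dvl1 quintuple replicate 2 took both calls away, with adjusted p-values up to 0.223, and of the other libraries only 35S:DVL8 replicate 2 could be left out with both calls kept. The window before AT5G23900, shown because this gene rose here and stood at wild-type level in dvl1-1D, holds a site II core at 62 bases and a telo-box at 13 bases before the gene start.
RPL13 gene AT5G23900, TAIR10.1 chr5:8065551-8065800, minus strand: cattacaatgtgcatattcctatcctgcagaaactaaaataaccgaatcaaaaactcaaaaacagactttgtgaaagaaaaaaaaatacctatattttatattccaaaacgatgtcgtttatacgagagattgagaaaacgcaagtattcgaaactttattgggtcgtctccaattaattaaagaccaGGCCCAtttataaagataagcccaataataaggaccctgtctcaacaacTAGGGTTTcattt
AT3G16780, described above with its promoter, passed the test in more comparisons than any other member, 4 of 7: it was lower in dvl1-1D against wild type and against 35S:DVL8, lower in the overexpression lines than in the quintuples, and higher here. The comparisons against wild type share the wild-type libraries.

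The overexpression lines differed from each other. In dvl1-1D against 35S:DVL8, 43 of 57 genes were lower (75.4%, where 13.8% of all tested genes were lower) and 0 higher (18.6% of all), with a median log2 fold change of -0.19. In 49 genes every dvl1-1D library lay below every 35S:DVL8 library (against 18.4% of all genes). AT1G77940 had the largest difference (-0.66 ± 0.04, adjusted p = 9.31e-07), followed by AT2G20450 (-0.39 ± 0.07, adjusted p = 0.000634) and AT4G10450 (-0.37 ± 0.06, adjusted p = 0.000501). AT5G22440, AT2G42740 and AT3G16780 each differed by -0.32, with adjusted p-values of 0.00213, 0.00347 and 0.000304. Among the paralog ratios 5 of 22 did not overlap (probability 0.1 per ratio in random order), with RPL30 at -0.53 and RPL14 at 0.33.

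No member passed the test between the quintuples. Between the dvl1 and the rtfl9 quintuple 0 of 57 genes were called by limma (of all tested genes 0.0148% were lower and 0.0% higher in the dvl1 quintuple), 11 were lower there at an unadjusted p under 0.05 (2.47% of all), and the median log2 fold change was -0.08. In the dvl1 quintuple 14 genes lay below the rtfl9 quintuple without overlap (24.6%, against 5.78% of all genes), and 53 of 57 estimates were below 0. Among the paralog ratios 6 of 22 did not overlap, where random order gives a probability of 0.1 per ratio. When both overexpression lines were compared with both quintuples, 53 of 57 genes were lower (93.0%, where 17.2% of all tested genes were lower) and 0 higher (14.8% of all), with a median of -0.21. Only 13 genes lay below without overlap over the 6 against 6 libraries (against 3.0% of all genes), and the summed level of 35S:DVL8 lay well above that of dvl1-1D, so this contrast averages lines that differ. The largest called differences were in AT2G20450 (-0.36 ± 0.05, adjusted p = 0.000121), AT1G80750 (-0.32 ± 0.04, adjusted p = 7.01e-05), AT2G42740 (-0.32 ± 0.05, adjusted p = 0.000385), AT3G16780 (-0.31 ± 0.03, adjusted p = 4.23e-05), AT5G22440 (-0.31 ± 0.05, adjusted p = 0.000327) and the RPL10 gene AT1G26910 (-0.30 ± 0.05, adjusted p = 0.000778). The genes not called were AT1G61580 of RPL3, AT1G77940 of RPL30, AT3G51190 of RPL8 and AT4G02230 of RPL19. Of the paralog ratios only those of RPL8 (0.09) and RPL12 (-0.08) did not overlap, both at the smallest exact permutation p of 6 against 6 libraries, 0.00216.

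Other genes of the 60S subunit and its assembly were also lower in dvl1-1D. Of 70 other genes for cytosolic 60S proteins 67 were tested, and in dvl1-1D 34 fell (50.7%) and 1 rose, with a median log2 fold change of -0.16. The falls were led by RPP2D, a protein of the stalk (-0.50 ± 0.07, adjusted p = 0.00021), RPL27A (AT2G32220, -0.42 ± 0.08, adjusted p = 0.00144) and RPL34C (-0.37 ± 0.05, adjusted p = 0.000139). Among 22 assembly factors and regulators 16 fell (72.7%) and 2 rose (median -0.26). Over all tested genes 14.0% fell and 16.7% rose in dvl1-1D. Among genes outside the members with a mean of at least 100 RPKM, 30.1% fell. The nucleolin gene NUC1, which acts in ribosomal RNA synthesis, fell by 0.59 on the log2 scale (adjusted p = 1.48e-05), the assembly factor gene BRX1-1 by 0.46 (adjusted p = 6.05e-05) and RPF2, whose yeast counterpart brings the 5S particle into the subunit, by 0.38 (adjusted p = 1.48e-05). S6K2, a kinase of the growth pathway TOR, and REIL1, a factor of late cytoplasmic maturation, rose by 0.48 and 0.19 (adjusted p = 0.00345 and 0.0167).

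Of 22 nuclear genes for large-subunit proteins of the plastid ribosome 3 fell in dvl1-1D (PRPL4, PRPL9 and PRPL12C, by 0.22, 0.22 and 0.21 on the log2 scale), and 0 rose. This is a share of 13.6% beside the 14.0% of all genes, and the median was -0.11. Most of these genes averaged over 100 RPKM. Among genes outside the members at that level 30.1% fell, with a median of -0.06. In the rtfl9 quintuple the assembly factors RPF2 (0.22 ± 0.04, adjusted p = 0.0281) and NMD3 (0.17 ± 0.04, adjusted p = 0.0481), the export adaptor of the subunit, were called higher, and 0 genes of the other lists were called. Calls of this comparison are unstable: over all genes the 65 higher became 9, 7 and 7 without wild-type replicate 1, 2 and 3. In 35S:DVL8 and the dvl1 quintuple no gene of these lists was called against wild type.

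Markers of cell types also differed in dvl1-1D. The summed level of 3 genes of dividing cells was 46.8 to 50.9 RPKM in dvl1-1D and 58.0 to 60.2 RPKM in wild type, and 2 of the 3 fell: CDKB2-1 (-0.33 ± 0.05, adjusted p = 0.000262) and CYCB1-1 (-0.32 ± 0.08, adjusted p = 0.00941). The summed level of 3 pollen genes was 457 to 620 RPKM in dvl1-1D against 399 to 443 RPKM in wild type, and 2 of them rose, TIP1-3 (0.65 ± 0.14, adjusted p = 0.00331) and PPME1 (0.36 ± 0.13, adjusted p = 0.0491). Of 7 floral genes AG (0.37 ± 0.06, adjusted p = 0.00043) and STM (0.31 ± 0.05, adjusted p = 0.000393) rose and 0 fell. In the rtfl9 quintuple the dividing-cell genes summed to 61.5 to 67.2 RPKM and the pollen genes to 299 to 354 RPKM, both outside the wild-type range, and none was called. In the dvl1 quintuple the dividing-cell genes summed to 62.0 to 66.7 RPKM and the pollen genes to 337 to 380 RPKM. Both sums also lay outside the wild-type range. In 35S:DVL8 the sums were 54.4 to 62.2 RPKM and 284 to 399 RPKM. The pollen genes did not move together in the quintuples. VGD1 averaged 286.3 RPKM in wild type, 219.4 RPKM in the dvl1 quintuple and 193.7 RPKM in the rtfl9 quintuple. In the same order PPME1 averaged 130.4, 122.2 and 118.5 RPKM and TIP1-3 8.709, 10.33 and 9.63 RPKM. Both genes overlapped wild type in both quintuples. The part of these markers in the results was not tested.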

How the data were processed

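RNA-seq was analysed from 15 libraries of inflorescence tissue, 3 in each of 5 groups assigned by the genotypes of the labels. The deposited values were RPKM per gene, computed by the authors. The submitters' processing notes name cutadapt, HISAT2 and HTSeq without versions, and the table's name gives counting without strand. No source used here names the genome build. Reads per library were recovered from the steps of the RPKM values (22471899 to 36589879) and entered no test. They served to describe depth, to check gene lengths by whole reads and to infer the reads of the genes under the filter. Of the 37336 identifiers, 37051 matched the RefSeq annotation of TAIR10.1, which was used for names, overlaps, coding sequences and promoters.

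The test was limma 3.58.1 (R 4.3.3) on log2(RPKM + 1), using a trended prior variance and group means fitted jointly over the 15 libraries. It covered the 20223 genes that reached an RPKM of 1 in 3 or more libraries. The pseudocount of 1 shrinks changes of low genes. P-values are two-sided, adjusted by Benjamini-Hochberg over all genes of each of 7 comparisons, with a threshold of 0.05. The procedure was tested on simulated data. The study text calls the replicates independent biological ones. Paralog ratios used exact permutation tests. Alternatives were a pseudocount of 0.1, no filter, median-of-ratios scaling, quantile normalization, replicate number as a block, array weights, a fit of the compared groups only, each library left out in turn and, chosen after seeing the data, both libraries that stand apart left out.

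Members, gene lists and tests were chosen with earlier results of these data known. Named with values were, per comparison, up to 6 called members per direction by absolute log2 fold change, the paralogs of each protein with the highest and lowest mean RPKM, the members called in most comparisons, those under the filter, and up to 3 called genes per direction of each list. List genes are named only for the comparisons against wild type. Some genes that the counts include are not reported by name here.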

Additional observations from a re-analysis of the deposited data

Results flagged for a closer look

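In the direct comparison of dvl1-1D with 35S:DVL8, 43 of 57 members were called lower (limma, adjusted over all genes). The 7 given here were named for their change against wild type, which uses the same dvl1-1D or 35S:DVL8 libraries, so their difference between the lines is no independent evidence. AT1G77940 of RPL30 moved in opposite directions from wild type, falling in dvl1-1D and rising in 35S:DVL8, and the lines differed by -0.66 on the log2 scale. The RPL14 gene AT2G20450 differed by -0.39, the RPL9 gene AT4G10450 by -0.37 and the RPL7 gene AT1G80750 by -0.30. AT2G42740 of RPL11, AT3G16780 of RPL19 and AT5G22440 of RPL10a each differed by -0.32. In all of these but AT1G77940 the estimate in 35S:DVL8 against wild type lay between -0.10 and 0.06, and that in dvl1-1D between -0.40 and -0.32. Causes were not tested.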

How the results depend on the processing

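No median of the 60S protein genes and no member named for its change against wild type or between the overexpression lines changed direction under any alternative run. The count of genes lower in dvl1-1D was 39 (quantile normalization) to 51 (median-of-ratios scaling), and 38 to 50 with a library left out. Its median was -0.16 after quantile normalization and -0.22 to -0.19 with a library left out. Against 35S:DVL8 the lower genes numbered 30 after quantile normalization and 34 to 47 with a library left out, with a median of -0.22 after median-of-ratios scaling, -0.14 after quantile normalization and -0.20 to -0.16 with a library left out. For the overexpression lines against the quintuples, quantile normalization gave a median of -0.17 and 1 gene higher. The count of genes higher in the rtfl9 quintuple was the least stable: 1 with a pseudocount of 0.1, 0 without the filter, 1 after median-of-ratios scaling, 11 with array weights, 0 in the fit of the compared groups only, 1 without both libraries that stand apart, and 0 to 3 with a library left out. With array weights 276 of all tested genes were called higher in the rtfl9 quintuple, against 65 in the main fit. In the dvl1 quintuple 0 to 1 of the 60S protein genes were higher with a library left out. RPL30 AT1G77940 was the gene called in 35S:DVL8 under each alternative run. Over all genes the split of calls in dvl1-1D turned with the scaling: from 3382 higher and 2837 lower against wild type to 2919 and 3327 (median-of-ratios) or 2776 and 3491 (quantile), and from 3761 and 2799 against 35S:DVL8 to 3118 and 3411 or 2831 and 3588. In the rtfl9 quintuple it turned from 65 and 184 to 7 and 2 with the replicate block. The causes were not tested. Deviations of same-numbered libraries correlated at -0.255 to 0.381 and not all above 0.1, so the numbers were not taken as pairs; the highest value was that of replicate 4 of both quintuples. With the replicate block 45 genes were lower in dvl1-1D, 44 against 35S:DVL8 and 53 in the overexpression lines against the quintuples, 1 was higher in 35S:DVL8 and 0 in the rtfl9 quintuple. Differences below the spread of 3 libraries per group could not be told from none, and for the 3 genes under the filter the reads were too few for any comparison.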
